A study of Mus musculus with 2 samples.

Results

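Neuroblasts, the immature migrating neurons of the adult forebrain, were chosen from single-cell RNA counts of mouse striatum by their own messages. A cell barcode with at least 300 detected genes was taken when at least 4 of the 8 genes *Dcx*, *Sox11*, *Igfbpl1*, *Dlx1*, *Dlx2*, *Dlx6os1*, *Cd24a* and *Tubb3* each had 1 or more unique molecular identifiers (UMIs, the tags that count each captured mRNA once), and when *Mki67*, *Top2a* and *Cenpf*, which are made in dividing cells, had none. The rule took 917 of the 12262 barcodes with at least 300 genes, 675 in library 1 and 242 in library 2, and the 2 libraries held 12415 barcodes in all. The label of these cells calls them postmitotic, and the data go partly against that word (cell-cycle genes outside the rule are described below), so they are called neuroblasts here.

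The striatum was dissected from untreated mice of strain C57/Bl6J in the sample labels (the protocol names C57BL/6NTac), aged 8 to 10 weeks, and was dissociated into a suspension labelled as enriched for glia. Its RNA was counted on the 10x Genomics droplet platform in 2 libraries, replicates 1 and 2 of 1 condition. The study's methods call all replicates biological and describe the profile of several mice, somewhat younger than the labels say, but which mice made up each library is not given. A dissection of striatum may include cells of the adjoining subventricular zone, and the counts carry no position, so the 2 places cannot be told apart.

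In the adult rodent brain, stem cells along the lateral ventricle give rise to dividing precursors and then to neuroblasts that make *Dcx*, a microtubule-binding protein, and the homeobox factors *Dlx1* and *Dlx2*. Neuroblasts travel in chains along the rostral migratory stream to the olfactory bulb and mature there into inhibitory interneurons, most of them GABAergic. They are known for polysialylated *Ncam1* on their surface and for responding to GABA before they have synapses.

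Other groups of cells were set beside the neuroblasts. Cycling neuroblasts (382 cells) met the same marker rule with 1 or more UMIs of *Mki67*, *Top2a* or *Cenpf*. Striatal projection neuron-like cells (207), astrocyte-like cells (2610) and microglia-like cells (2422) had fewer than 4 neuroblast markers and at least 5 markers of their own type. Microglia-like cells served as a measure of free RNA, the messages that droplets pick up from broken cells. Levels are in CPM, the UMIs of a gene or list scaled to the same total of UMIs in every group and library, and a pair of values is always library 1 and then library 2. Levels are compared between groups for the same gene or list, and the leading gene of a list is the one with the most UMIs.

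Library 1 held 44597660 UMIs in 6978 barcodes and library 2 held 37982720 UMIs in 5437. Neuroblasts made up 9.79% of the barcodes kept in library 1 (exact binomial 95% interval 9.09–10.5%) and 4.51% (3.97–5.10%) in library 2, a mean of 7.15% with a standard deviation of 3.73 (n = 2 libraries). The share in library 1 lay above the interval of library 2. Their median depth was 4279 UMIs in library 1 and 4262 in library 2, although 42 of 675 and 26 of 242 neuroblasts held fewer than 1000 UMIs. Cycling neuroblasts were deeper, with medians of 13466.5 and 13242.5 UMIs, and a rule that asks for 0 UMIs of 3 genes is easier to meet in a shallow cell. The same 9 barcodes occurred in both libraries, and 1 of them was a neuroblast, in library 1 only.

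The markers used by the rule did not rise from nothing at the threshold. Of the barcodes without a cycle-gene UMI, 228 and 120 held 3 of the 8 markers, just outside, and 148 and 50 held 4, just inside. Toward the top, 226 and 82 held all 8, more than held 6 (67 and 29). The summed level of 16 neuroblast markers outside the rule was 1644 and 1688 CPM with 3 markers, 2841 and 3575 CPM with 4, 6036 and 5720 CPM with 5, and 14255 and 12961 CPM with all 8. Cells with 4 markers thus stood nearer to those with 3 than to those with 8. Among neuroblasts they were also the shallowest, with medians of 1439.5 and 1334.5 UMIs against 6649 and 6056 in cells with 8, while the cells with 3 markers held 4073 and 7726.5.

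**Figure D1:**
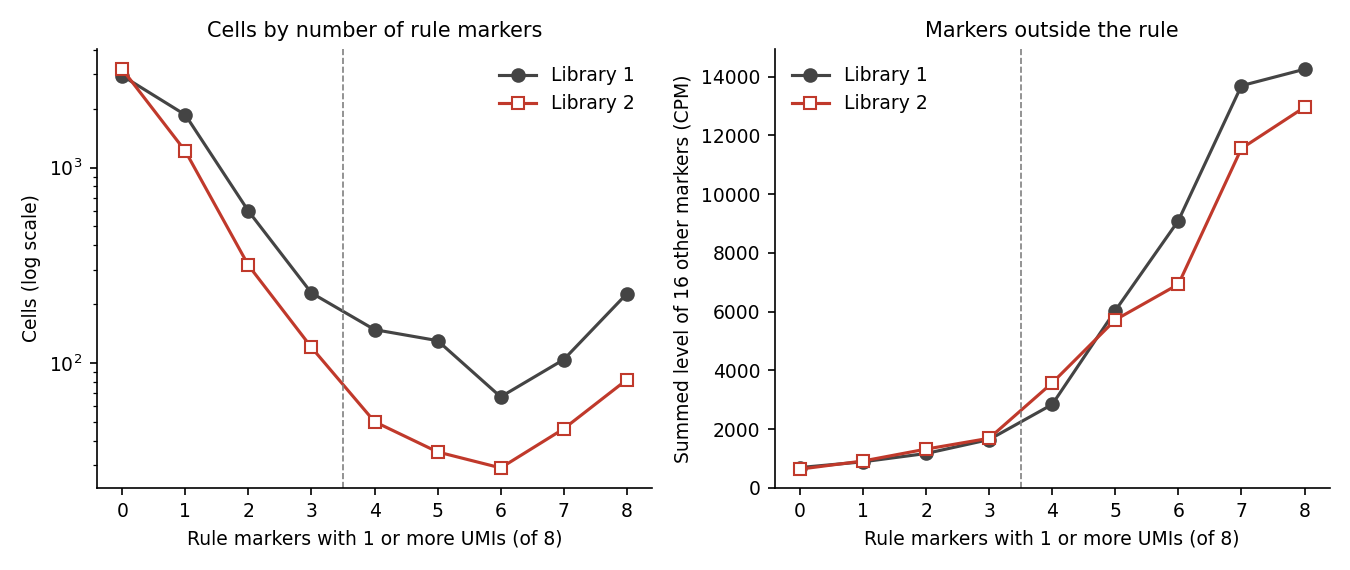
Left, the number of cells (log scale) by how many of the 8 rule markers had a UMI, for barcodes with no UMI of the 3 cycle genes. Right, the summed level in CPM of 16 neuroblast markers outside the rule in the same cells, which rises from 2841 and 3575 CPM at 4 markers to 14255 and 12961 CPM at 8. Filled circles are library 1, open squares library 2, and the dashed line is the rule's threshold.

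Some neuroblast barcodes held RNA of other cell types. The 4-marker cells carried 1520 and 2010 CPM of 9 projection neuron markers, against at most 439.9 CPM in cells with 5 or more, and 2167 and 2543 CPM of 6 oligodendrocyte precursor markers, against at most 805 CPM. Of the lists of other types the highest in them was that of 7 oligodendrocyte genes, which differed between the libraries at 21002 and 2559 CPM (at most 7414 CPM with 5 or more markers), and astrocyte markers were at 3741 and 1373 CPM. In 72 neuroblasts of library 1 (10.7%) and 19 of library 2 (7.85%), at least 1% of all UMIs, and at least 10 UMIs, came from 1 of 10 marker lists of other types. Their median depth was 7625.5 and 8700.0 UMIs. Hemoglobin and other red cell genes were the extreme, at 3772 and 3598 CPM over all neuroblasts, with 96.2% and 99.3% of those UMIs in 4 and 1 barcodes. Without these 5 barcodes the level was 144 and 27.7 CPM. The most abundant of the red cell genes was *Hbb-bs*, at 2271 and 2343 CPM.

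The other foreign lists were spread unequally as well. Oligodendrocyte genes summed to 6645 and 2443 CPM, with 80.2% and 73.8% of the UMIs in 34 and 7 barcodes, and microglia-like cells held 6849 and 3917 CPM of the same genes. Microglia genes summed to 887 and 941 CPM, with 68.6% and 81.4% in 7 and 5 barcodes, and astrocyte genes, led by *Slc1a2*, to 1450 and 733 CPM. Endothelial genes stood at 553 and 368 CPM and mural genes at 616 and 86.5 CPM, with 86.9% of the mural UMIs of library 1 in 4 barcodes. Ependymal genes were at 18.7 and 10.3 CPM, led by *Rarres2*. Of the macrophage markers only 13 and 2 UMIs were found, with *Lyve1* at 0 in both libraries. A caller of doublets marked 16 and 12 of the neuroblasts.

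Messages that bear on identity can be read in part from the DNA beside the start sites. Homeobox factors, the Dlx proteins among them, are known to bind sites with the core TAATTA, so the promoters of the neuroblast markers were searched for it. RefSeq promoters of build GRCm38.p6, 250 bases before each annotated start, were at hand for 6 of the 8 rule markers and for 9 of the 16 others. The core, which reads the same on both strands, stood in promoters of *Dcx* and *Dlx6os1* among the rule markers and of *Elavl4* and *Sp8* among the others. Several of these genes have more than 1 promoter. Counted by promoter, 4 of 8 of the rule markers and 3 of 15 of the others held it, beside 4.84% of all 32841 promoters of that table. The 30 bases around each match are shown on the gene's strand, 5′ to 3′, with the core in capitals.
Dcx (chrX:143933241-143933270, minus strand): aaaaaaagcatgTAATTAatcataggaggt
Dlx6os1 (chr6:6861840-6861869, minus strand): taaattatcctcTAATTAtacaccagtgtc
Dlx6os1 (chr6:6869646-6869675, minus strand): gaaaattacaggTAATTAtctttgacggta
Dlx6os1 (chr6:6869590-6869619, minus strand): gaaaaattactcTAATTAtggctgcattta
Elavl4 (chr4:110287712-110287741, minus strand): tcagccgggcttTAATTAccagacacaaga
Sp8 (chr12:118847359-118847388, plus strand): ctcttgctggttTAATTAgtttccttttat
Each of these stretches lies inside the span that GENCODE M21 gives the gene, since its transcripts start at several places. A further motif searched on both strands, CAGCTG, an E-box of the kind that proneural factors bind, stood in promoters of 4 of the 9 other markers (*Elavl3*, *Elavl4*, *Hes6* and *Sox4*), of 1 rule marker (*Sox11*), and in 13% of all promoters. Another, ACAAAG or its reverse CTTTGT, the core of Sox sites, stood in those of *Dpysl5*, *Gad1* and *Hes6*, of *Dcx*, and in 16.5% of all. The percentages over all are of promoters, not genes. Counted by promoter, the E-box stood in 6 of 15 of the other markers and 1 of 8 of the rule markers. The Sox core stood in 4 of 15 and 1 of 8. These counts describe letters, not binding.

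Whether the cells had left the cell cycle was asked with 56 genes of the S phase and of the G2 and M phases that the rule did not use. UMIs of these genes, 2 or more to a cell, were found in 79.9% of the neuroblasts in library 1 (76.6–82.8%) and 76.0% (70.1–81.3%) in library 2, but also in 75.9% and 72.8% of microglia-like cells, whose median depth was 7192 and 5724.5 UMIs. Since depth differs between groups, cells were then thinned to 2000 UMIs, which kept 446 and 166 neuroblasts. At that depth 68.2% (63.6–72.5%) and 72.3% (64.8–78.9%) of neuroblasts held 2 or more, against 31.7% and 32.7% of microglia-like, 45.8% and 42.3% of astrocyte-like, 25.9% and 10.4% of projection neuron-like and 95.8% and 96.4% of cycling cells. In both libraries the intervals of neuroblasts lay above those of the 3 other types. That they lay below the cycling cells is a description, since cell cycle genes split these groups. At 10 or more UMIs the picture was other: 2.91% and 2.41% of neuroblasts reached it, against 77.9% and 80.4% of cycling and 0% and 0.3% of microglia-like cells. Astrocyte-like cells gave 1.11% (0.533–2.03%) and 1.22% (0.612–2.18%). Their intervals overlapped those of neuroblasts (1.56–4.93% and 0.66–6.05%). Unthinned, 160 neuroblasts (23.7%) and 51 (21.1%) held 10 or more, with highest counts of 137 and 82.

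**Figure D2:**
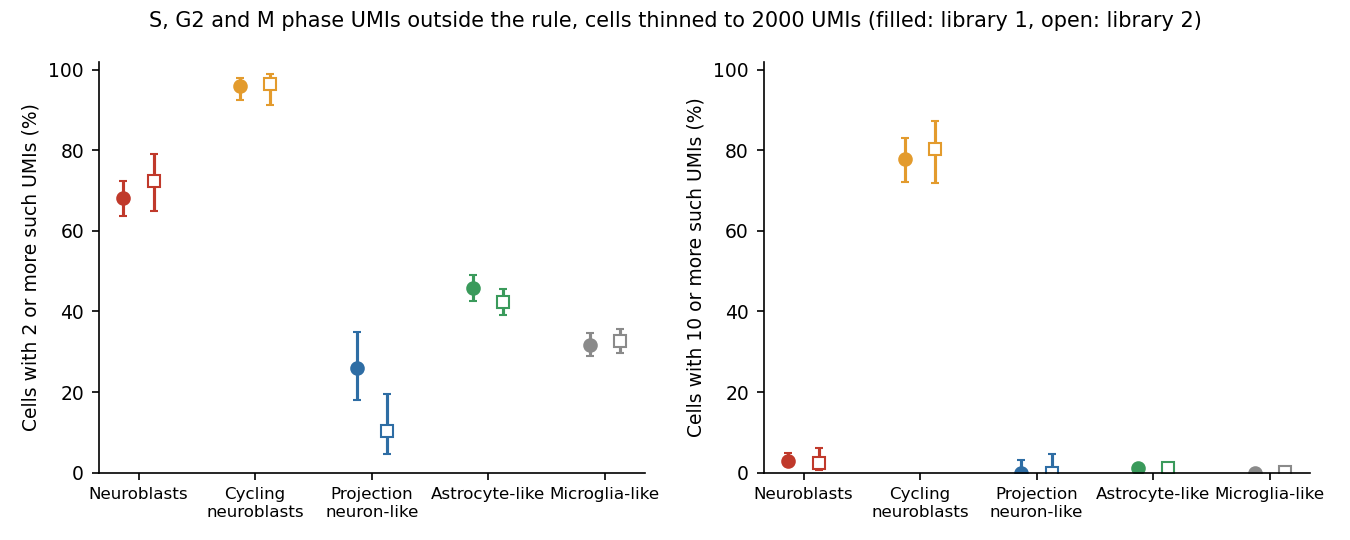
Percent of cells with 2 or more (left) and 10 or more (right) UMIs of 56 S, G2 and M phase genes outside the rule, after thinning each cell to 2000 UMIs. Points are libraries (filled circle 1, open square 2) with exact binomial 95% intervals. Neuroblasts, at 68.2% and 72.3% on the left, lie above the microglia-like cells, and on the right they stay under 3%.

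S-phase genes and genes of the G2 and M phases were then summed apart. The rule removed every cell with a UMI of *Mki67*, *Top2a* or *Cenpf*, genes that peak in G2 and M, so low sums of that list are built into the choice of cells. The 26 S-phase genes summed to 1039 and 936 CPM in neuroblasts, 343 and 396 CPM in microglia-like cells and 5879 and 5392 CPM in cycling cells. *Cdca7*, the most abundant of them in neuroblasts, stood at 317 and 243 CPM, against 24.2 and 23.3 CPM in microglia-like and 3.85 and 3.44 CPM in projection neuron-like cells, and was detected in 51.9% and 45.9% of neuroblasts. Its thinned share was 40.8% (36.2–45.5%) and 38.6% (31.1–46.4%) against 4.99% (3.74–6.51%) and 4.5% (3.3–5.98%) in microglia-like cells. The 30 G2 and M phase genes summed to 549 and 469 CPM in neuroblasts, 289 and 321 CPM in microglia-like and 10698 and 12967 CPM in cycling cells. Much of the neuroblast sum came from *Hmgb2*, at 184 and 139 CPM, and *Tubb4b*, at 132 and 160 CPM. In astrocyte-like cells these 2 stood at 165 and 110 CPM and at 353 and 333 CPM. How far the shares of cells rest on these genes and *Cdca7* was not tested. By the edgeR test described next, 20.7% of all genes were higher and 21.3% lower in neuroblasts than in projection neuron-like cells, and 24.1% and 25.8% than in astrocyte-like cells. Of the 26 S-phase genes, 22 were higher and 1 was lower than in projection neuron-like cells, and of the 30 G2 and M genes 6 were higher and none lower. Over astrocyte-like cells 17 of 26 and 1 of 30 were higher, with 8 of the 30 lower. The counts fell to 9 of 22 and 2 of 30 over projection neuron-like cells when cells were thinned to 1000 UMIs.

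Counts were summed per library and group and compared by the quasi-likelihood test of edgeR (adjusted p-values after Benjamini and Hochberg), with the library as a block. Fold changes are neuroblasts over the other group. The genes of the rules of the groups compared were left out of all counts, and genes that rise and fall with those markers had to differ between groups chosen by them. Over projection neuron-like cells, the mature inhibitory neurons of the striatum, 20.7% of 13539 genes were higher in neuroblasts and 21.3% lower (42.0% in either direction). The reference cells had more mitochondrial RNA, with a median of 11.2% and 16.3% of UMIs against 5.09% and 5.82% in neuroblasts, and 17 of 124 and 30 of 83 of them were past 20%. With cells past 20% left out, 5304 genes were called in place of 5686. The median log2 fold change of all these genes was 0.05. Of the 16 neuroblast markers outside the rule, 13 were higher, *Gad1* was lower, and *Dlx6* and *Gad2* did not pass, with a median of 4.01 on the log2 scale.

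The largest rises over projection neurons included transcription factors, a tubulin and a receptor for a migration cue. *Sp8* (chromosome 12, 118846329 to 118852576 of GRCm38, plus strand), a zinc finger factor of olfactory bulb interneuron precursors, had 249 and 221 CPM in neuroblasts and no UMI in projection neuron-like cells. Set against a floor of 3 counts over both libraries it was at least 109.0-fold higher. *Cd1d1*, which presents lipid antigens, at 128 and 117 CPM and *Prokr2*, the receptor for a chemoattractant of migrating neuroblasts, at 97.6 and 58.7 CPM also had none, and were at least 56.7-fold and 39.7-fold higher. *Mex3a*, an RNA-binding protein of undifferentiated cells, had 1 UMI in projection neurons and *Calb2*, the calcium-binding protein calretinin, 2, giving ratios of 192.0 (exact 95% counting interval 34.3–7580.0) and 126.0 (34.7–1040.0). *Tox3*, *Mfap2* and *Zfp57* had 3 UMIs each, and their ratios were 98.4, 90.9 and 83.4.

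Genes with more counts on both sides gave firmer values. *Sox4* (chromosome 13, 28948919 to 28953713), a SoxC factor of newborn neurons, had 2400.2 and 2194 CPM in neuroblasts and 33.3 and 20.7 CPM in projection neurons (log2 fold change 6.23, standard error 0.16, adjusted p = 6.5e-08). *Tubb2b*, a beta-tubulin of developing neurons, had 3112 and 2691 CPM against 56.4 and 13.8 CPM (log2 fold change 6.16, standard error 0.32, adjusted p = 6.4e-07). *Pafah1b3*, a catalytic subunit of the enzyme complex to which the product of the migration gene *Pafah1b1* also belongs, had 264 and 284 CPM against 5.13 and 1.72 CPM (log2 fold change 5.88, standard error 0.27). For each of these the 2 libraries of neuroblasts lay close together and far above both libraries of neurons.

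The 12 deepest falls included ion channel, receptor and secretory genes of mature neurons. *Ano3*, a protein of the anoctamin family found in striatal neurons, had 11.7 and 19.8 CPM in neuroblasts and 445 and 703 CPM in projection neurons (log2 fold change −5.33, standard error 0.31, adjusted p = 1.2e-06). *Htr1b*, a serotonin receptor, had 3.07 and 2.38 CPM against 136 and 96.5 CPM (log2 fold change −5.30, standard error 0.38), and *Scn4b*, an auxiliary sodium channel subunit, 13.1 and 9.52 CPM against 326 and 467 CPM (log2 fold change −5.10, standard error 0.31). *Kcna4*, a potassium channel, and *Vgf*, a secreted neuropeptide precursor, had log2 fold changes of −5.08 and −5.11. *Slit3*, *Car12*, *Coch*, *Lamp5*, *Rbp4*, *Gpr6* and *Cdh9* made up the rest, at −5.28 to −4.98.

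**Figure D3:**
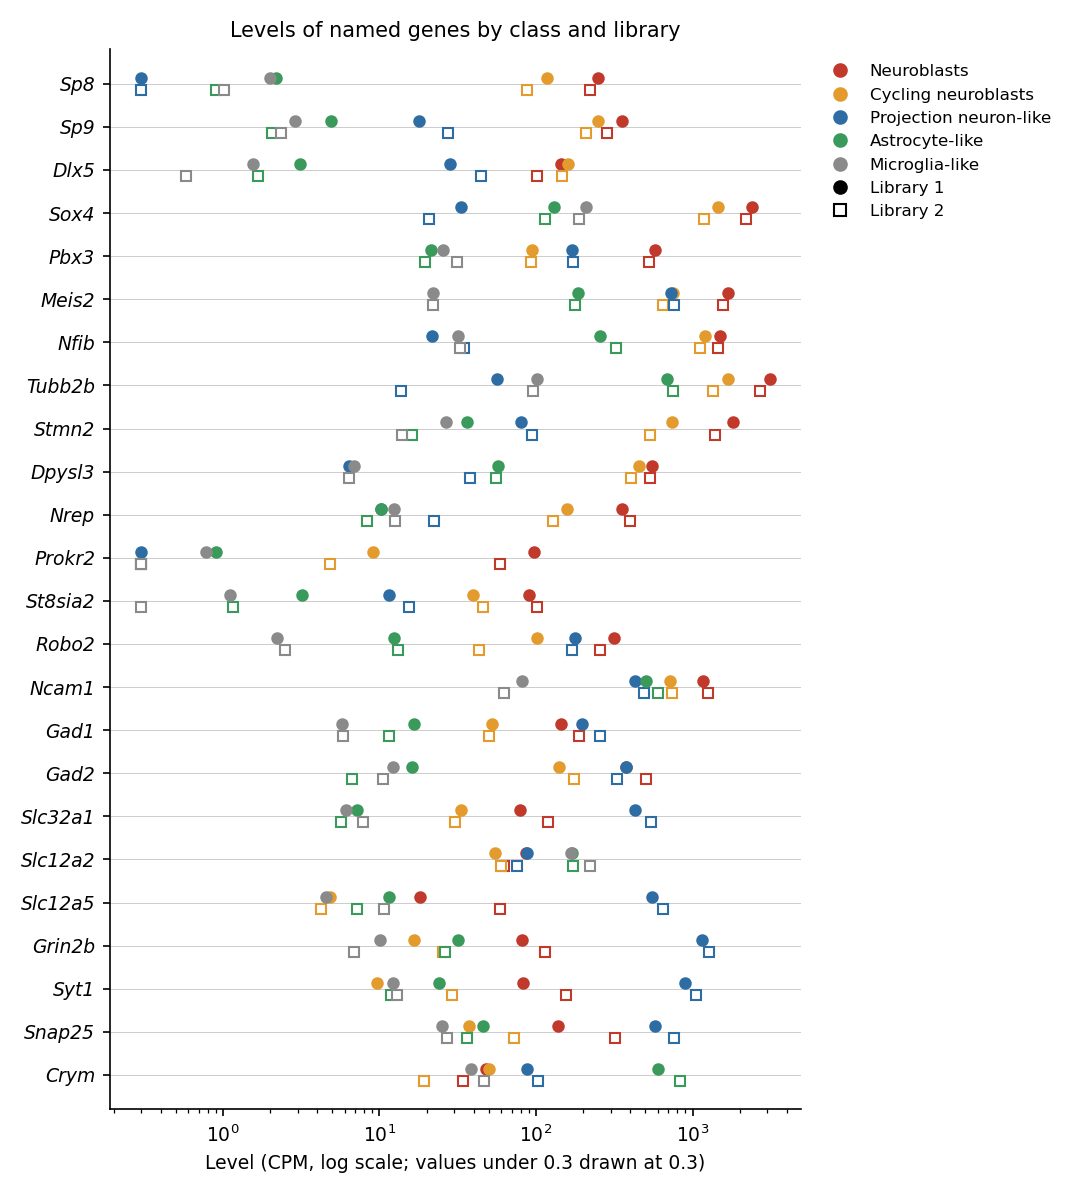
Level in CPM (log scale) of 24 genes in neuroblasts and 4 other groups of cells. Filled circles are library 1 and open squares library 2, with colours for the groups. *Sp8* lies at 249 and 221 CPM in neuroblasts with no UMI in projection neurons, while *Slc12a5*, at 551 and 644 CPM in projection neurons, lies at 18.1 and 58.7 CPM in neuroblasts.

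Transcription factors of the interneuron lineage were mostly higher than in projection neurons. Of 25, 19 were higher in neuroblasts than in projection neuron-like cells, 2 were lower and 4 did not pass, with a median of 2.53. Over all genes 20.7% were higher and 21.3% lower. *Nfib*, a nuclear factor I protein of precursors and young neurons, stood at 1491 and 1459 CPM against 21.8 and 34.5 CPM (log2 fold change 5.59, standard error 0.21). *Sp9*, a zinc finger factor of the same family as *Sp8*, stood at 355 and 282 CPM against 17.9 and 27.6 CPM (log2 fold change 3.69, standard error 0.27). The 2 that were lower, *Foxp1* and *Bcl11b*, are known factors of striatal projection neurons. *Foxp1* stood at 117 and 114 CPM against 718 and 759.6 CPM (log2 fold change −2.81, standard error 0.13).

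Genes of microtubules and the growth cone were mostly higher too, with 20 of 28 higher, 3 lower and a median of 1.94. The shares over all genes were 20.7% higher and 21.3% lower. The alpha-tubulin *Tuba1a* stood at 5262 and 4423 CPM in neuroblasts and 501 and 270.4 CPM in projection neurons (log2 fold change 3.54, standard error 0.16). *Stmn1* and *Stmn2*, which bind tubulin and keep microtubules dynamic, rose with log2 fold changes of 3.35 and 4.06. The collapsin response mediator *Dpysl3* had 551 and 535 CPM against 6.41 and 37.9 CPM. The 3 that were lower were *Dclk1*, the growth-associated *Gap43* and the tubulin *Tuba4a* of mature neurons. The call of *Gap43* rested on library 1, since it had 107 and 266 CPM against 338 and 248 CPM. *Tuba4a* had 25.7 and 46.01 CPM against 144 and 107 CPM (log2 fold change −2.05, standard error 0.25). A further member, *Tubb6*, was not tested for want of counts.

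The enzymes that make GABA were near the levels of projection neurons, while the transporter that packs it and the chloride exporter were lower. *Gad2*, 1 of the 2 enzymes that make GABA, stood at 376 and 503 CPM in neuroblasts and 377 and 329 CPM in projection neurons and did not pass (log2 fold change 0.17, standard error 0.27, adjusted p = 0.64). *Gad1*, the other, was lower at 145 and 188 CPM against 197 and 255 CPM (log2 fold change −0.58, standard error 0.20, adjusted p = 0.037). *Slc32a1*, which loads GABA into vesicles, stood at 78.9 and 119.8 CPM against 431 and 541 CPM (log2 fold change −2.45, standard error 0.19). *Slc12a5* encodes the transporter that exports chloride in mature neurons, and it stood at 18.1 and 58.7 CPM against 551 and 644 CPM (log2 fold change −4.29, standard error 0.37, adjusted p = 1.2e-05). Its value in library 2 was above that in library 1, and both lay far below the projection neurons. *Slc12a2*, which imports chloride, stood at 85.9 and 62.7 CPM against 87.2 and 75.8 CPM and did not pass. Of the 8 genes of this list none was higher and 4 were lower (median −0.41), the fourth being *Abat*, which breaks GABA down. Over all genes 20.7% were higher and 21.3% lower.

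Receptors and release genes followed the same direction. Over all genes 20.7% were higher and 21.3% lower than in projection neurons. Of 12 GABA-A receptor subunits 11 were lower than in projection neurons, none was higher, and the median was −2.46. *Gabrd*, a subunit of receptors outside synapses, stood at 11.4 and 10.3 CPM against 322 and 299.7 CPM (log2 fold change −4.90, standard error 0.20). Of 13 subunits of glutamate receptor channels 10 were lower and none higher, with a median of −2.32. The NMDA receptor subunit *Grin2b* stood at 81.1 and 113 CPM against 1141 and 1268 CPM (log2 fold change −3.78, standard error 0.18), and the AMPA receptor subunit *Gria2* at 650.3 and 619 CPM against 2349.7 and 2398 CPM (log2 fold change −2.04, standard error 0.12). Of 16 genes of synaptic vesicles and release 13 were lower and none higher, with a median of −1.58. *Syt1*, the calcium sensor of release, stood at 82.8 and 155 CPM against 899 and 1058 CPM (log2 fold change −3.24, standard error 0.38). Over astrocyte-like cells 13 of the 16 release genes, 6 of the 12 GABA-A subunits and 4 of the 13 glutamate receptor subunits were higher, and 0, 3 and 3 were lower, beside 24.1% higher and 25.8% lower over all genes.

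The comparison with cycling neuroblasts asked what changes when cells with the same markers do not show the 3 cycle genes. Of 13483 genes, 14.6% were higher in neuroblasts and 15.0% lower (29.5% in either direction), with a median of 0.04. The 3 cycle genes define the contrast, so the genes of cell division that move with them are given with no test. All 12 of the most lowered genes were of that kind: *Aspm*, *Spc25*, *Kif15*, *Prc1*, *Melk*, *Ect2*, *Esco2*, *Cdca2*, *Gas2l3*, *Kif4*, *Ckap2l* and *Knl1*. *Prc1*, which bundles the microtubules of the dividing spindle, stood at 4.18 and 5.55 CPM in neuroblasts and 345 and 536 CPM in cycling cells. With library sizes alone in place of TMM scaling the split of calls moved from 49.3% higher to 63.7% higher (2623 against 1495 genes), and the median of all genes moved from 0.04 to 0.19.

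Genes of early neurogenesis, which were not part of that set, were mostly lower as well. Of 16 progenitor and early neurogenic genes 10 were lower in neuroblasts than in cycling cells and 2 were higher, with a median of −1.38. Over all genes 15.0% were lower and 14.6% higher. The growth factor receptor *Egfr* stood at 8.92 and 5.55 CPM against 53.6 and 80.4 CPM (log2 fold change −3.03, standard error 0.27). *Insm1*, a factor of cells committed to become neurons, stood at 75.6 and 54.7 CPM against 269.8 and 307 CPM (log2 fold change −2.31, standard error 0.34). The 2 that were higher were *Hes1* and *Id1*, which are also abundant in astrocyte-like cells (*Hes1* at 103 and 38.8 CPM, *Id1* at 143 and 109.7 CPM), and neither passed once the barcodes with at least 1% of another type's UMIs were left out. A lost call does not show by itself a smaller fold change, and the part of RNA from other cells was not tested. Over projection neuron-like cells 11 of the 16 were higher and none lower, falling to 7 with at least 7 of the 8 markers and to 4 of 14 when cells were thinned to 1000 UMIs. In the main comparison with those cells 20.7% of all genes were higher and 21.3% lower.

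The 12 genes with the highest fold changes over cycling cells included 4 hemoglobin genes and several genes known from neurons. *Vsnl1*, a neuronal calcium sensor, stood at 51.3 and 171 CPM in neuroblasts and 1.88 and 11.5 CPM in cycling cells (log2 fold change 3.91, standard error 0.58, adjusted p = 0.00098), and *Scg2*, a granin of secretory vesicles, at 72.2 and 91.2 CPM against 3.48 and 8.47 CPM (log2 fold change 3.68, standard error 0.31, adjusted p = 3.3e-05). The noncoding RNA *Meg3* stood at 2288 and 3892 CPM against 295 and 314 CPM (log2 fold change 3.16, standard error 0.18). *Adarb2*, a marker of interneurons from the caudal and lateral eminences, stood at 316 and 306 CPM against 39.7 and 33.9 CPM (log2 fold change 2.89, standard error 0.14, adjusted p = 1.6e-06). *Calb2*, *Prokr2*, *Snhg11* and *Caly* rose as well, at 2.92 to 3.55. In this comparison the hemoglobin genes *Hba-a2*, *Hbb-bt*, *Hba-a1* and *Hbb-bs* had the 4 highest fold changes. Without all neuroblasts and cycling cells that held at least 1% of another type's UMIs, their log2 fold changes were 1.52, 0.59, 1.15 and 0.57, with adjusted p of 0.42, 0.73, 0.54 and 0.75 by the same edgeR test. That filter uses a red cell list that holds these genes, so lower values were fixed by it and are no test.

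Lineage factors split in this comparison, with 8 of 25 higher and 6 lower and a median of −0.06 (0.09 with library sizes alone). The shares over all genes were 14.6% higher and 15.0% lower. *Pbx3* (chromosome 2, 34171457 to 34373142, minus strand), a homeobox partner of Meis proteins, stood at 578 and 528 CPM against 94.6 and 92.5 CPM in cycling cells (log2 fold change 2.40, standard error 0.12, adjusted p = 1.5e-06), and *Meis2* at 1690.5 and 1569 CPM against 747 and 645 CPM (log2 fold change 1.07, standard error 0.11). *Sp8* was higher and *Nfib* and *Dlx5* did not pass. *Gsx2*, a patterning factor of the lateral wall, stood at 1.12 and 5.55 CPM against 46.4 and 47.8 CPM (log2 fold change −4.14, standard error 0.49). *Sox2*, the factor of stem and precursor cells, was lower at 323 and 230.0 CPM against 421 and 346 CPM (log2 fold change −0.62, standard error 0.16). Of the 16 neuroblast markers outside the rule 8 were higher, *Hes6* was lower and 7 did not pass, with a median of 0.49. Of 28 microtubule and growth cone genes 14 were higher, among them *Gap43* and *Nrep*, and 3 were lower, *Tuba1b*, *Tubb5* and *Stmn1*, with a median of 0.42.

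Lists of neuronal genes were also compared with cycling cells. Over all genes 14.6% were higher than in cycling cells and 15.0% lower. Of 16 release genes 12 rose and none fell (median 1.58), of 13 glutamate receptor subunits 10 rose and none fell (1.83), of 12 GABA-A subunits 8 rose and none fell (1.07), and of the 8 GABA and chloride genes 6 rose and none fell (1.18). The 9 projection neuron markers moved with them, at 465.7 and 444.2 CPM in neuroblasts against 88.15 and 74.98 CPM in cycling cells, and were highest in the 4-marker neuroblasts. With at least 5 of the 8 markers 11 release genes, 8 glutamate receptor and 5 GABA-A subunits rose, and without the barcodes with at least 1% of another type's UMIs 14, 8 and 5 did. *Syt1* went from 9.65 and 29.02 CPM in cycling cells to 82.8 and 155 CPM (log2 fold change 2.54, standard error 0.45), and *Gria2* from 209.8 and 172 CPM to 650.3 and 619 CPM (log2 fold change 1.57, standard error 0.12). *Slc32a1* went from 33.2 and 30.2 CPM to 78.9 and 119.8 CPM (log2 fold change 1.40, standard error 0.20). Some counts of receptor subunits were smaller still under other choices of neuroblasts. With at least 7 of the 8 markers, 5 of the 13 glutamate receptor subunits rose, and without neuroblasts holding 4 markers of another class 6 of 12 rose and 4 of the 12 GABA-A subunits did. With all cells thinned to 1000 UMIs, fewer genes could be tested and fewer were called over all genes. There 4 of 12 release genes, 2 of 9 glutamate receptor and 1 of 9 GABA-A subunits rose.

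Astrocyte-like cells gave the most called genes of the 3 comparisons. Of 13539 genes, 24.1% were higher and 25.8% lower in neuroblasts (49.9% in either direction), with a median of −0.02. All 16 neuroblast markers outside the rule were higher, with a median of 4.25. *Stmn2* (chromosome 3, 8509360 to 8561606, plus strand) stood at 1805 and 1400.1 CPM against 36.1 and 16.02 CPM (log2 fold change 5.93, standard error 0.25, adjusted p = 1.9e-07), *Bcl11a*, a zinc finger factor of forebrain neurons, at 375 and 374 CPM against 9.13 and 7.18 CPM (log2 fold change 5.39, standard error 0.15, adjusted p = 2.5e-08), and *Nrep*, a small protein of growing neurons, at 352 and 399 CPM against 10.3 and 8.33 CPM (log2 fold change 5.21, standard error 0.21). *Tiam2*, an activator of Rac, and *St8sia2*, an enzyme that puts polysialic acid on *Ncam1*, rose by 5.20 and 5.06. *Islr2*, *Dlx5*, *Gad2*, *Sp8*, *Sp9* and *Prokr2* were also among the 12 highest, at 5.17 to 6.76. Of the 25 lineage factors 22 were higher and 1 was lower, and of 28 microtubule and growth cone genes 22 were higher and 2 lower.

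The genes lowest in neuroblasts against astrocytes included transporters, receptors and enzymes of astrocytes. *F3*, the initiator of clotting, stood at 52.98 and 17.5 CPM against 706 and 847 CPM (log2 fold change −4.39, standard error 0.32), and *Ntsr2*, a neurotensin receptor, at 64.98 and 34.9 CPM against 826 and 932 CPM (log2 fold change −4.12, standard error 0.23). *Slc7a10*, *Sdc4*, *Slc39a12*, *Etnppl*, *Cldn10*, *Cyp4f15*, *Phkg1*, *Htra1* and the GABA transporter *Slc6a11* had log2 fold changes of −4.18 to −4.01. In each of these 11 genes the neuroblasts of library 2 had the lower level. Of 16 progenitor and early neurogenic genes 2 were higher than in astrocytes, *Insm1* (log2 fold change 3.14, standard error 0.39, adjusted p = 0.00013) and *Tead2* (log2 fold change 1.70, standard error 0.21, adjusted p = 0.00013), and 10 were lower, among them *Hes5*, a Notch target, at 40.2 and 34.1 CPM against 429.8 and 544 CPM (log2 fold change −3.65, standard error 0.21). Over all genes 24.1% were higher and 25.8% lower.

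*Crym*, which encodes the thyroid hormone-binding protein μ-crystallin and is the gene that the study follows in astrocytes, lies on chromosome 7 (120186380 to 120202111, minus strand). In neuroblasts it stood at 48.2 and 34.1 CPM (exact Poisson 95% intervals 41.3–56.0 and 24.7–45.9), in cycling neuroblasts at 49.8 and 19.3 CPM, in projection neuron-like cells at 87.2 and 103 CPM and in astrocyte-like cells at 605 and 830.3 CPM. Microglia-like cells had 38.5 and 46.8 CPM. A UMI of *Crym* was found in 16.3% and 8.26% of neuroblasts and in 15.6% and 8.96% of the microglia-like group. The median neuroblast held 4279 and 4262 UMIs, and the median microglia-like cell 7192 and 5724.5. At 2000 UMIs per cell the shares were 8.74% (6.29–11.8%) and 4.82% (2.1–9.27%) against 6.46% (5.03–8.14%) and 4.3% (3.13–5.75%), so *Crym* in neuroblasts was not distinguishable from free RNA. It was lower than in astrocytes (log2 fold change −4.11, standard error 0.34, adjusted p = 8.9e-06), lower than in projection neurons (log2 fold change −1.28, standard error 0.38) and did not differ detectably from cycling cells (log2 fold change 0.05, standard error 0.36, adjusted p = 0.94). The study also reports neurons with μ-crystallin protein in the subventricular zone, stained together with NeuN, and sets them beside its single-cell data. Whether those neurons are among the neuroblasts here was not tested.

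Other genes of thyroid hormone handling were tested too. The receptor gene *Thra* stood at 341 and 358 CPM and was higher than in projection neurons, astrocytes and cycling cells by 0.39, 0.43 and 0.92 on the log2 scale. *Thrb*, the other receptor, stood at 7.81 and 19.04 CPM, below projection neurons (log2 fold change −1.97, standard error 0.34) and above cycling cells (log2 fold change 1.33, standard error 0.39). Of the 6 genes tested, *Crym* among them, 2 were higher and 3 lower than in projection neurons, 1 higher and 5 lower than in astrocytes, and 3 higher and none lower than in cycling cells (medians −0.26, −2.29 and 0.59). Of all genes 20.7% were higher and 21.3% lower than in projection neurons, 24.1% and 25.8% than in astrocytes and 14.6% and 15.0% than in cycling cells. Without the library block, none of the 6, *Thra* included, passed as higher than in projection neurons or astrocytes. *Dio2*, which activates the hormone, stood at 7.53 and 6.35 CPM against 94.6 and 84.4 CPM in astrocytes.

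Migration and guidance genes did not move 1 way against projection neurons: 14 of 37 were higher and 13 lower, with a median of 0.03 against 0.05 over all genes. The shares over all genes were 20.7% higher and 21.3% lower. *Ncam1* stood at 1168 and 1251 CPM against 429 and 491 CPM (log2 fold change 1.26, standard error 0.11), and the polysialic acid enzymes *St8sia2* and *St8sia4* were both higher, *St8sia2* at 89.8 and 101 CPM against 11.5 and 15.5 CPM (log2 fold change 2.65, standard error 0.36). *Lrp8*, a reelin receptor, was higher (log2 fold change 3.19, standard error 0.21), while *Vldlr*, the other reelin receptor, was lower (log2 fold change −1.58, standard error 0.18). *Erbb4*, the neuregulin receptor of migrating interneurons, stood at 109.9 and 146 CPM against 12.8 and 44.8 CPM (log2 fold change 2.08, standard error 0.30). Among the lower genes were the axon molecules *L1cam*, *Nrcam* and *Chl1* and the Eph receptors *Epha4*, *Epha5* and *Ephb1*. *Robo2*, a Slit receptor, did not pass against projection neurons (log2 fold change 0.58, standard error 0.25, adjusted p = 0.093).

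Against cycling cells 21 of the 37 were higher and 4 lower, with a median of 1.00. Over all genes 14.6% were higher and 15.0% lower, so the lower count does not exceed that share. *Robo2* stood at 317 and 255 CPM against 102 and 43.5 CPM (log2 fold change 1.80, standard error 0.24, adjusted p = 0.00055), *Plxna4*, a semaphorin co-receptor, at 127 and 126 CPM against 29.2 and 24.8 CPM (log2 fold change 2.03, standard error 0.18), and *Erbb4* at 109.9 and 146 CPM against 27.3 and 29.6 CPM (log2 fold change 1.95, standard error 0.23). The 4 lower genes were *Epha3*, *Efnb1*, *Itgb1* and the chemokine receptor *Cxcr4*. *Epha3* stood at 8.37 and 19.8 CPM against 61.6 and 69.5 CPM (log2 fold change −2.50, standard error 0.27). Against astrocytes 20 were higher and 5 lower, and with at least 7 of the 8 markers 13 were lower. The shares over all genes in the main comparison with astrocytes were 24.1% higher and 25.8% lower.

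**Figure D4:**
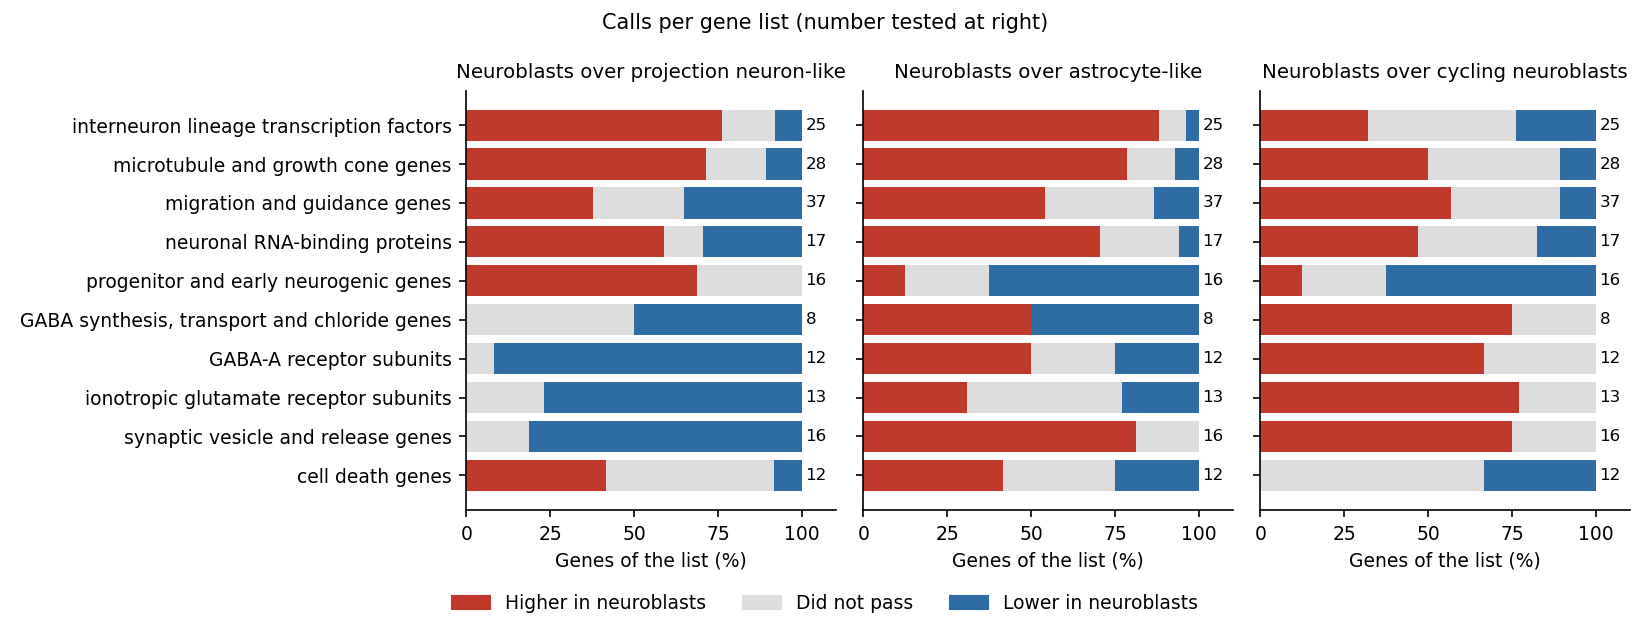
Percent of the genes of 10 lists that were higher (red), lower (blue) or did not pass (grey) in neuroblasts over each of 3 other groups, by edgeR's quasi-likelihood test at an adjusted p of 0.05. The number tested stands at the right of each bar. Release genes turn from 13 of 16 lower against projection neurons to 12 of 16 higher against cycling cells, and lineage transcription factors are 19 of 25 higher against projection neurons. Over all genes 20.7% were higher and 21.3% lower against projection neurons, and 14.6% and 15.0% against cycling cells.

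Where in the ventricular wall neuroblasts arise is known to set the kind of interneuron they become, and factors of each region were therefore counted cell by cell. The share of neuroblasts with a UMI, after thinning to 2000 UMIs, is given beside that in microglia-like cells. *Meis2* was found in 86.5% (83.03–89.6%) and 84.9% (78.6–90.01%) of neuroblasts and 3.62% (2.56–4.96%) and 2.9% (1.95–4.14%) of microglia-like cells. *Sp8*, a factor of the dorsal lateral ganglionic eminence, was found in 39.2% (34.7–43.9%) and 33.1% (26.03–40.8%) against 0.293% (0.0606–0.855%) and 0% (0–0.368%), and without thinning in 47.9% and 42.6% against 1.42% and 0.435%. *Pax6*, a factor of dopaminergic and dorsal granule cells, was found in 19.3% (15.7–23.3%) and 13.9% (8.99–20.1%) against 0.489% (0.159–1.14%) and 0.2% (0.0242–0.721%), and *Foxp2* in 16.4% (13.1–20.1%) and 16.3% (11–22.8%) against 0.881% (0.403–1.67%) and 0.6% (0.221–1.3%). Unthinned, the shares of *Pax6* and *Foxp2* were 31.6% and 20.2%, and 28% and 26.03%.

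Among the other regional factors, *Sp9* was found in 48.2% (43.5–52.95%) and 49.4% (41.6–57.3%) of neuroblasts and 0.783% (0.339–1.54%) and 0.7% (0.282–1.44%) of microglia-like cells. *Etv1* was in 47.98% (43.3–52.7%) and 28.9% (22.2–36.4%) against 15.2% (13.02–17.5%) and 10.9% (9.04–13%), *Tshz1* in 33.2% (28.8–37.8%) and 27.7% (21.1–35.2%) against 3.91% (2.81–5.29%) and 3.7% (2.62–5.06%) and *Bcl11b* in 25.8% (21.8–30.1%) and 25.3% (18.9–32.6%) against 1.47% (0.824–2.41%) and 1% (0.481–1.83%). *Foxp1*, in 13.7% (10.6–17.2%) and 16.3% (11–22.8%) of neuroblasts and 14.7% (12.6–17%) and 15.4% (13.2–17.8%) of microglia-like cells, did not stand apart by this measure, although its level was above that of astrocyte-like cells (log2 fold change 0.59, standard error 0.13, adjusted p = 0.0036). *Zic1*, a factor of the septal wall, was in 8.07% (5.72–11%) and 6.63% (3.35–11.5%) against 0.685% (0.276–1.41%) and 0.4% (0.109–1.02%). The intervals of *Six3* and *Nkx6-2* overlapped those of microglia-like cells in both libraries. *Eomes* and *Tbr1*, factors of the glutamatergic lineage, were in 2.24% (1.08–4.08%) and 1.81% (0.374–5.19%) and in 2.02% (0.927–3.8%) and 3.01% (0.985–6.89%) of neuroblasts, and in 0% (0–0.36%) and 0.1% (0.0025–0.556%) and in 0.196% (0.0237–0.705%) and 0.1% (0.0025–0.556%) of microglia-like cells. In bulk, 9 of 13 lateral ganglionic eminence factors were higher than in cycling cells and 2 were lower (*Gsx2* and *Six3*), 5 of 8 dorsal and pallial factors were higher and *Emx2* was lower, and 1 of 8 medial and septal factors, *Lhx6*, was higher (at least 13.7-fold, against no UMI in cycling cells). The medians of the 3 lists were 1.04, 1.93 and 0.60, beside 14.6% of all genes higher and 15.0% lower, a share near that of the medial and septal factors. With DESeq2 the dorsal count fell to 1 of 8 and with at least 7 markers to 0 of 2. Over projection neurons the same lists gave 6 higher and 5 lower of 13, 4 and 0 of 8, and 3 and 0 of 8, where 20.7% and 21.3% of all genes were called, and over astrocytes 10 and 1, 7 and 1, and 4 and 1, where 24.1% and 25.8% were.

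**Figure D5:**
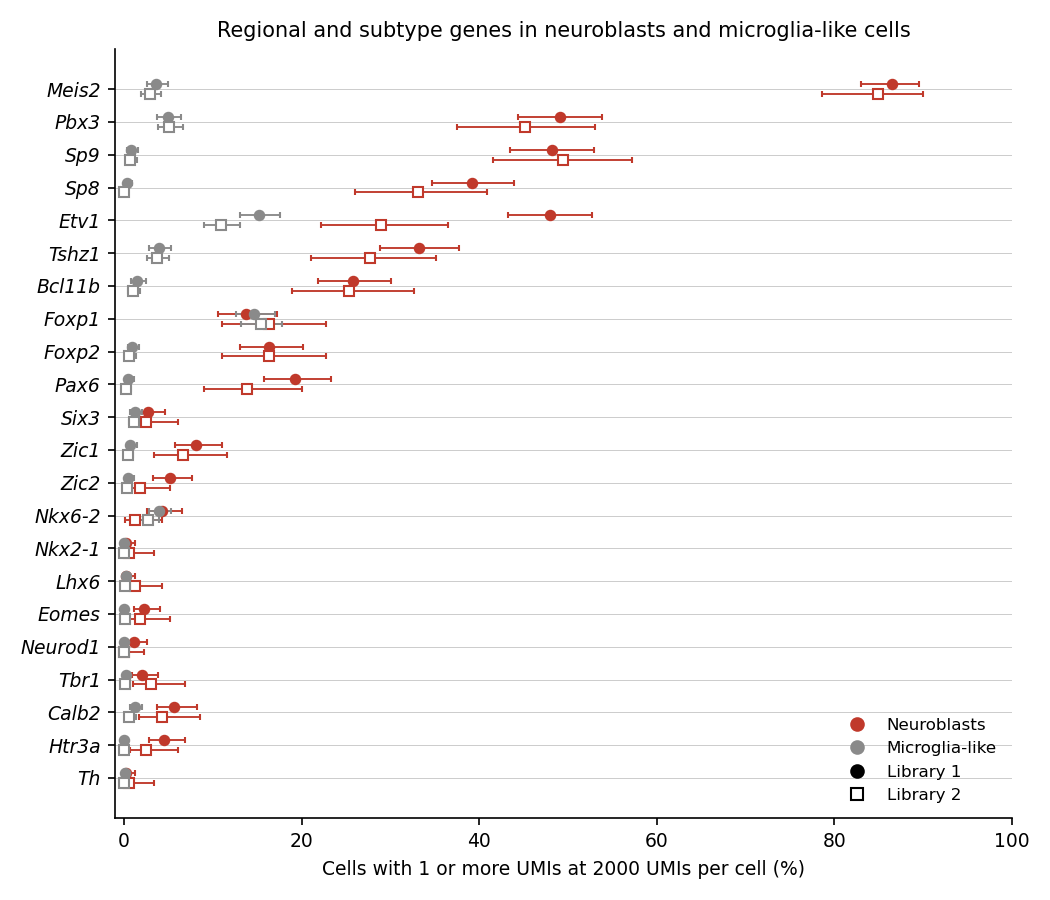
Percent of cells with 1 or more UMIs of 22 regional and subtype genes after thinning to 2000 UMIs, in neuroblasts (red) and microglia-like cells (grey), with exact binomial 95% intervals. Filled circles are library 1 and open squares library 2. *Meis2*, at 86.5% and 84.9%, lies far to the right of the microglia-like cells, while *Foxp1* overlaps them.

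Factors that mark different origins could be asked for in the same cells. Among the 446 and 166 thinned neuroblasts, *Pax6* and *Foxp2* were found together in 7 and 1, where the product of their shares gives 14.1 and 3.74. *Tshz1* and *Foxp2* were found together in 40 and 14, where the product gives 24.2 and 7.48, and *Sp8* with *Pax6* in 45 and 10, where it gives 33.7 and 7.62. *Sp8* and *Foxp2* were together in 24 and 6 against 28.6 and 8.95. *Bcl11b* and *Foxp2* were together in 32 against 18.8 in library 1 and in 5 against 6.83 in library 2. The 16 pairs counted carry no test, and the part of depth and of mixed barcodes in them was not tested.

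Subtype genes of mature olfactory bulb interneurons were sparse. *Calb2* stood at 197 and 151 CPM but was found in only 7.56% and 6.2% of neuroblasts, against 1.89% and 1.13% of microglia-like cells. *Th*, the enzyme that starts dopamine synthesis, stood at 15.9 and 7.93 CPM, with 67 UMIs in all neuroblasts, and *Htr3a*, a serotonin receptor channel of interneurons, at 23.7 and 11.1 CPM. *Pvalb*, *Vip*, *Nos1* and *Crh* had too few counts to be tested. Of the 10 subtype genes tested 7 were higher and none lower than in cycling cells, 5 were higher and none lower than in astrocytes, and 3 were higher and 3 lower than in projection neurons. The shares higher and lower over all genes were 14.6% and 15.0%, 24.1% and 25.8%, and 20.7% and 21.3%, so the counts over projection neurons lie close to them. The 3 lower ones were *Calb1*, *Cck* and *Reln*.

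Early and late genes could be counted in the same cells. At 2000 UMIs, 44.2% and 34.9% of neuroblasts held 2 or more UMIs of the progenitor and early neurogenic genes, and 37.7% and 33.7% held 2 or more of the 16 release genes. Both were found in 66 and 14 cells, where the product of the shares gives 74.2 and 19.6. Unthinned, the release genes summed to 1061 and 2131 CPM in the neuroblasts with 4 markers, 1326 and 1408 CPM with 5, 1526 and 2059 CPM with 6, 671 and 2009 CPM with 7, and 661 and 466 CPM with 8. The projection neuron markers were at 1520 and 2010 CPM with 4 markers and at 440 and 174 CPM with 5. With 6 markers they were at 344 and 365 CPM, with 7 at 166 and 280 CPM, and with 8 at 248 and 96.9 CPM. The part of projection neuron RNA in the release gene levels was not tested. Cycling neuroblasts held early genes in 79.2% and 75% and late genes in 17.1% and 11.6%. In projection neuron-like cells the late share was 96.4% and 97.4%. Microglia-like cells gave 35.2% and 32.3% for the early genes, so that the early share of neuroblasts was above that background in library 1 and near it in library 2, and 6.26% and 4.4% for the late genes. The early shares also count *Slc1a3*, an astrocyte rule gene left out of the 16 genes tested. *Vim*, *Slc1a3* and *Id4* led the list in neuroblasts, at 260 and 128, 239 and 114, and 214 and 118 CPM. In astrocyte-like cells *Slc1a3* stood at 1818 and 2317 CPM and *Id4* at 467 and 536 CPM.

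Ribosomal protein genes were high in neuroblasts. The 80 cytosolic ribosomal protein genes tested summed to 107823 and 100227 CPM in neuroblasts and 30333 and 25640 CPM in projection neurons, and 79 of them were higher (median 1.80). Against astrocytes 77 of 80 were higher, and against cycling cells none was higher and 47 were lower (median −0.34). The last count depended on the settings, with 23 of 80 by library sizes alone and 9 of 80 (median −0.04) with at least 7 of the 8 markers. This list was added with the counts known. Neuronal RNA-binding proteins gave 10 higher and 5 lower of 17 over projection neurons, 12 and 1 over astrocytes and 8 and 3 over cycling cells, with medians of 0.83, 1.64 and 0.27. Over all genes the shares higher and lower were 20.7% and 21.3%, 24.1% and 25.8%, and 14.6% and 15.0%. The 5 and 3 that were lower than in projection neurons and cycling cells lie near those shares. *Elavl2* and *Elavl4*, which stabilize neuronal messages, were higher than in projection neurons, *Elavl4* at 301 and 336 CPM against 5.13 and 6.89 CPM (log2 fold change 5.49, standard error 0.23). *Rbfox3*, the antigen NeuN of mature neurons, was lower at 29.6 and 48.4 CPM against 179 and 198 CPM (log2 fold change −2.47, standard error 0.28).

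Many new neurons are known to die on their way, and 12 genes of cell death were tested. Of these, 5 were higher and 1 was lower than in projection neurons. *Bax*, *Bcl2l11*, *Mcl1* and *Trp53* were among the higher and *Bcl2*, which protects cells, was the lower (log2 fold change −1.79, standard error 0.29). Over astrocytes 5 of 12 were higher and 3 lower, and over cycling cells none was higher and 4 were lower, with medians of 0.90, 0.18 and −0.40 in the 3 comparisons. Of all genes 20.7%, 24.1% and 14.6% were higher and 21.3%, 25.8% and 15.0% lower in these comparisons, so the 3 genes lower than in astrocytes are the share found over all genes. These are messages, and cell death itself was not measured. Of 9 immediate early genes, which dissociation can induce, 1 was higher and 4 lower than in projection neurons, 1 and 1 than in astrocytes and 2 and 0 than in cycling cells. Without the barcodes that held at least 1% of another type's UMIs, 5 of 9 were lower than in astrocytes.

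Genes of other cell types were tested as well. Over all genes 20.7% were higher and 21.3% lower than in projection neurons. The shares were 24.1% and 25.8% against astrocytes and 14.6% and 15.0% against cycling cells. Over projection neurons 6 of 6 oligodendrocyte precursor genes were higher, 1 of 7 oligodendrocyte genes was lower, 1 of 6 endothelial and 2 of 5 red cell genes were higher, and no mural (6) or ependymal (5) gene passed. Over astrocytes 7 of 7 oligodendrocyte, 5 of 6 precursor, 1 of 6 mural and 5 of 5 ependymal genes were lower, and no endothelial (6) or red cell (5) gene passed. Over cycling cells 1 of 7 oligodendrocyte, 5 of 6 precursor, 6 of 6 endothelial, 1 of 6 mural and 5 of 5 red cell genes were higher and 4 of 5 ependymal genes were lower. Lists of which 1 gene passed lie near or below the share of all genes in that direction. When the neuroblasts and cycling cells with at least 1% of another type's UMIs were left out, a filter built on these same lists, no endothelial, mural or red cell gene was higher and no ependymal gene lower than in cycling cells, while 4 of 7 oligodendrocyte and 5 of 6 precursor genes were higher. Over projection neurons no endothelial or red cell gene was then higher, 7 of 7 oligodendrocyte, 4 of 6 endothelial, 6 of 6 mural and 4 of 5 red cell genes were lower, and 3 of 6 precursor genes were higher. Over astrocytes 6 of 6 endothelial and 5 of 5 red cell genes were then lower. With only the marked doublets removed, 6 of 6 endothelial genes were lower than in astrocytes (median log2 fold change −1.09). With at least 5 of the 8 markers, 7 of 7 oligodendrocyte genes were lower than in projection neurons. The precursor counts depended on which neuroblasts were kept. Over cycling cells 2 of 6 passed with at least 5 markers (median log2 fold change 0.28), 2 with at least 7 (−0.05), 1 without neuroblasts holding 4 markers of another class (0.10) and 1 with cells thinned to 1000 UMIs (0.36). Over projection neurons 2 of 6 precursor genes were higher with at least 5 markers, and 1 was higher without neuroblasts holding 4 markers of another class. The 5 macrophage genes had too few counts to be tested.

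The neuroblasts of the 2 libraries differed in some genes, which were chosen here after their values were seen and carry no test. Several neuronal genes were higher in library 2. *Snhg11*, a noncoding RNA, stood at 233 and 964 CPM, *Snap25*, a release gene, at 139 and 317 CPM, and *Vsnl1* at 51.3 and 171 CPM. *Lhx6* and *Nkx2-1*, factors of the medial eminence, stood at 4.18 and 17.5 CPM and at 3.9 and 16.7 CPM, and *Npy* and *Sst*, peptides of striatal interneurons, at 11.2 and 46.8 CPM and at 9.48 and 26.97 CPM. *Pax6* was the other way, at 134 and 67.4 CPM.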

How the data were processed

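Single-cell RNA was counted in 2 libraries of adult mouse striatum. The authors deposited whole-number UMI counts for each gene in each barcode, made with Cell Ranger 4.0 on mm10 per the submitters' processing notes (the paper's methods name another version), of barcodes called cells, unnormalized. The study's later filters, doublet removal, integration and annotation are not part of these counts. The members and gene lists were chosen with earlier results of these data known.

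Barcodes with at least 300 detected genes were sorted by marker rules. Counts were summed per library and class and fitted in edgeR 4.0.16 (R 4.3.3) with TMM factors, filterByExpr and the quasi-likelihood test, 4 classes in 1 fit, with a prior count of 2 and 3 residual degrees of freedom. Benjamini-Hochberg adjusted p-values were read at 0.05. All classes of a library come from 1 suspension, so the library was a block by design. The p-values borrow the spread estimated across genes and, with 2 libraries, measure only the spread between these samples. The text names, per comparison, the 12 highest and 12 lowest fold changes of called genes with 1 direction in both libraries and at least 50 CPM in the higher class of each, leaving out rule genes, mitochondrial genes and gene models without a symbol, and described members of the lists. Intervals of shares (exact binomial) and levels (exact Poisson) are at 95% and cover counting error only. For shares, cells were thinned to 2000 UMIs and shallower cells left out. Doublets were marked, and kept, using Scrublet (scanpy 1.11.5, 6% expected). The method was tested on simulated data. Alternatives were DESeq2 1.42.0, library sizes alone, no block, no filter on genes, 500 genes, under 20% mitochondrial UMIs, doublets removed, thinning to 1000 UMIs, at least 5 markers, and leaving out each library. At least 7 markers and 2 filters on RNA of other classes were added after seeing the data. A few genes of the lists and of the named-gene rule are not reported here by name, and counts over lists include them.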

Additional observations from a re-analysis of the deposited data

How the results depend on the processing

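With 1 library left out, the share of neuroblasts ran from 4.51% to 9.79%, the share with cell-cycle UMIs from 76.0% to 79.9% and the level of *Crym* from 34.1 to 48.2 CPM, and counts of calls could not be fitted with 1 library. The share with 2 or more cell-cycle UMIs, a mean of 77.9%, became 70.2% when cells were thinned to 2000 UMIs. At 3 or more UMIs the share was 66.8% without thinning, and 45.1% and 50.6% in the 2 libraries with it. Genes called in either direction numbered 5686 over projection neuron-like cells, 6759 over astrocyte-like cells and 3983 over cycling neuroblasts. Thinned to 1000 UMIs they were 2468, 3321 and 856, with fewer genes tested, and over cycling cells 2489 with at least 7 of the 8 markers. Without the replicate block they were 5249, 5980 and 3076, within 1.5 times of each total. Of 156 counts over gene lists, each in 1 direction, 13 moved by over 1.5 times without the block. Over cycling cells endothelial genes went from 6 higher to 3, cell death genes from 4 lower to 2 and progenitor genes from 2 higher to 0. Over astrocytes medial and septal factors went from 4 higher to 2, and over projection neurons thyroid hormone genes from 2 higher to 0 and red cell genes from 2 to 1. The other 7 differed by 1 gene. DESeq2 gave 4922, 5445 and 3085. Library sizes alone moved the median log2 fold change of all genes over projection neurons from 0.05 to 0.18. Of the 1006 values of named genes under alternatives, none changed sign and 7 no longer passed, all of them hemoglobin genes over cycling cells when barcodes with RNA of other classes were left out. Part of this was fixed in advance. Named genes had to have 1 direction in both libraries, so their values with 1 library left out could not change sign. Those values carry no p-value either. The neuroblasts of library 2 were few (242 cells, 1260654 UMIs), which limits what was detectable for genes at a few CPM.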
